A study of Homo sapiens with 3 samples.

Results

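The replication-dependent histone genes stand in a few dense clusters, HIST1 on chromosome 6 and HIST2 and HIST3 on chromosome 1. All called regions whose centre lay in 5 windows over these clusters were taken, from 3 lists of chromatin immunoprecipitation sequencing (ChIP-seq) regions in the human genome build hg19. On chromosome 6 the first HIST1 window ran from 26 to 26.3 Mb, the second from 27.08 to 27.3 Mb and the third from 27.76 to 27.9 Mb. On chromosome 1 the HIST2 window ran from 149.75 to 149.87 Mb and the HIST3 window from 228.6 to 228.66 Mb. They held 131 of the 59983 regions of the series, of which 30 were of CK2α, 51 of RNA polymerase II (Pol II) with DMSO and 50 of Pol II with TBBz.

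The regions came from LNCaP cells, an androgen-responsive prostate carcinoma line, at passages 40 to 45. All cultures were kept in charcoal-stripped serum for 3 days and then received 100 nM dihydrotestosterone (DHT), a potent ligand of the androgen receptor, so no group lacked the hormone. The CK2α library was made from cells given DHT and no named vehicle, for 2.5 hours by the treatment label and 90 min by the protocol; CK2α carries the catalytic activity of CK2, a kinase of serine and threonine residues. The Pol II libraries were made from cells given DMSO as vehicle or 25 μM TBBz, a CK2 inhibitor, for 2.5 hours, with DHT during the last 1.5 hours. Each group had 1 library, so replicate error is unknown and differences between groups were not tested. Intervals of counts and shares are exact 95% intervals of counting error only. Intervals of medians describe the spread over sites. Neither kind covers error between libraries. The source names of both Pol II libraries mention TBBz, and their groups were taken from the treatment labels; were these swapped, each direction between them would turn. Other effects of the compound cannot be told apart from loss of CK2 activity.

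Replication-dependent histone genes encode the linker histone H1 and the core histones H2A, H2B, H3 and H4. They are short genes without introns, transcribed by Pol II mainly in S phase, and their mRNAs end in a conserved stem-loop in place of a poly(A) tail. Many H2A and H2B genes are arranged as divergent pairs that share the stretch between them. In RefSeq (GRCh38.p14), which was used for names and neighbours only, the clusters held 67 protein-coding histone genes: 6 for H1, 16 for H2A, 17 for H2B, 14 for H3 and 14 for H4. By order along the chromosome, 32 of them belonged to the first HIST1 group, 5 to the second and 16 to the third. HIST2 had 11 and HIST3 had 3. At least 10 pairs of neighbouring H2A and H2B genes pointed away from each other. A gene with no strand given, such as H2AC12, could not be counted in a pair. Among the 21 other genes between them were HFE, which encodes a regulator of iron uptake, and 8 tRNA genes, which are transcribed by RNA polymerase III. Since the annotation was of another build than the regions, no region was assigned to a single gene.

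Promoters of these genes show what kind of start site the clusters repeat. The 120 bases before the start of the first gene of each histone class in the first HIST1 group are given below, for the first gene that the RefSeq promoter table (GRCh38.p14) holds, on the strand of the gene. Capitals mark the TATA box letters TATAAA, the CCAAT box (CCAAT or, on the other strand, ATTGG) and the octamer ATTTGCAT (or ATGCAAAT).
H1-1: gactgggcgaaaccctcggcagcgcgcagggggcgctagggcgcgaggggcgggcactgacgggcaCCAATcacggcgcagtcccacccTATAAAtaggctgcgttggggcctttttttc
H2AC4: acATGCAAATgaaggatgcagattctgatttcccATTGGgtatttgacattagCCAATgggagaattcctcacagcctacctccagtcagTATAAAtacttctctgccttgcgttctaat
H2BC3: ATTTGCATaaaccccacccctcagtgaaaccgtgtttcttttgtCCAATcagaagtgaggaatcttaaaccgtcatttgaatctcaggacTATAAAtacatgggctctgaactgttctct
H3C1: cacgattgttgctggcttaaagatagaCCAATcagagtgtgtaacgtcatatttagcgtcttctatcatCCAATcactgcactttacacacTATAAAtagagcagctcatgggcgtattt
H4C2: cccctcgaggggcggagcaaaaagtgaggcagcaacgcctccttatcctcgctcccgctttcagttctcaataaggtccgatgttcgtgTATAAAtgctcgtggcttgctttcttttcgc

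TATAAA began between 29 and 31 bases before the start in all 5 of these sequences. The whole 300-base promoter entries, which run past the start, were then read on both strands and at any position. TATAAA was found in 40 of the 62 histone cluster genes with an entry (64.5%). Of all 27305 promoters of that length 12.0% held it, and of the 15843 protein-coding ones 9.63%. CCAAT was found in 53 of 62 (85.5%), against 35.7% of all and 36.4% of protein-coding promoters. The octamer, a binding sequence of the OCT1 factor, was in 24 of 62 (38.7%), against 1.80% and 1.70%. The classes differed in these letters: the octamer was in 13 of 17 H2B and 10 of 15 H2A promoters and in none of the 6 H1 and 12 H4 promoters, and CCAAT was in each H1, H2A, H2B and H3 promoter with an entry and in 3 of 12 H4 promoters. These counts describe the sequences only and were not tied to the regions.

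Pol II and CK2α regions were crowded in the windows. Over the 840 kb, there were 6.07 Pol II regions per 100 kb with DMSO (95% Poisson interval 4.52 to 7.98), 5.95 with TBBz (4.42 to 7.85) and 3.57 of CK2α (2.41 to 5.10). The whole lists had 0.706, 0.801 and 0.433 per 100 kb, so the windows were 8.60, 7.43 and 8.25 times as dense. The windows were drawn over gene clusters, and neither this comparison nor that with windows of equal width was matched for the number of genes. The first HIST1 window held 22 DMSO, 20 TBBz and 12 CK2α regions. Of the 6195 windows of that width along the genome that held a region of any list, 7 (0.113%) had as many DMSO regions, 44 (0.710%) as many TBBz regions and 24 (0.387%) as many CK2α regions. The third HIST1 window held 10, 9 and 5, and 0.879%, 2.53% and 3.44% of the windows of its width had as many. The second HIST1 window was thinner, with 9, 10 and 3; 5.11% of the windows of its width had as many DMSO, 5.30% as many TBBz and 25.3% as many CK2α regions. In the HIST2 window there were 9 DMSO, 10 TBBz and 9 CK2α regions, the last of which 12 of 10953 windows reached (0.110%). The HIST3 window held 1 region of each list, a number that most windows of 60 kb with any region also had (82.7% for DMSO, 59.2% for CK2α).

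**Figure D1:**
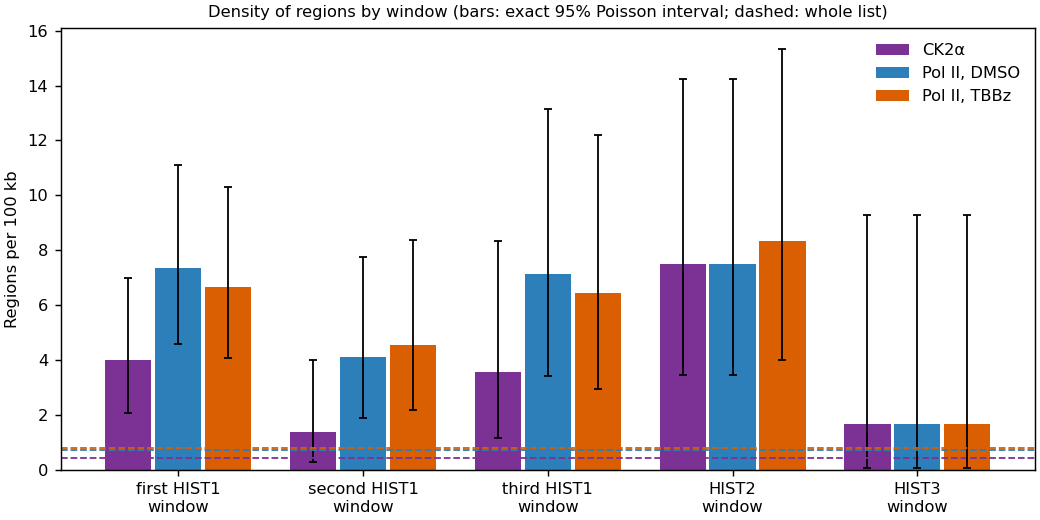
Regions per 100 kb (bars) in each histone window for the 3 libraries, with exact 95% Poisson intervals of the count; dashed lines give the density over the whole list in the same colour. In the HIST2 window CK2α and DMSO Pol II both had 7.5 regions per 100 kb and TBBz Pol II had 8.33, with intervals that overlap those of the first HIST1 window, and the intervals of the HIST3 window, which rest on 1 region, cover the whole-list density.

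Between the HIST1 windows Pol II regions were sparser than in any of the 3 windows, and CK2α regions were about as dense as in the second; all stood above the density of the whole lists. The 780 kb from the first to the second window held 1.79 DMSO, 1.67 TBBz and 1.28 CK2α regions per 100 kb, and the 460 kb from the second to the third held 2.17, 2.17 and 1.30. None of the first 1000 regions of any list stood in these stretches. Relative to the number of histone genes, the first HIST1, the third HIST1 and the HIST3 window had 0.688, 0.625 and 0.333 DMSO regions per gene, HIST2 had 0.818 and the second HIST1 window 1.8. CK2α regions per gene ranged from 0.312 in the third HIST1 window to 0.818 in HIST2. These ratios take every region of a window, whether or not it stands at a histone gene. No ratio per gene was taken over the genome, so whether the clusters hold more regions per gene was not tested. In the second HIST1 window the DMSO regions reached from chr6:27100757 to chr6:27247663, with neighbours up to 63374 bp apart.

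**Figure D2:**
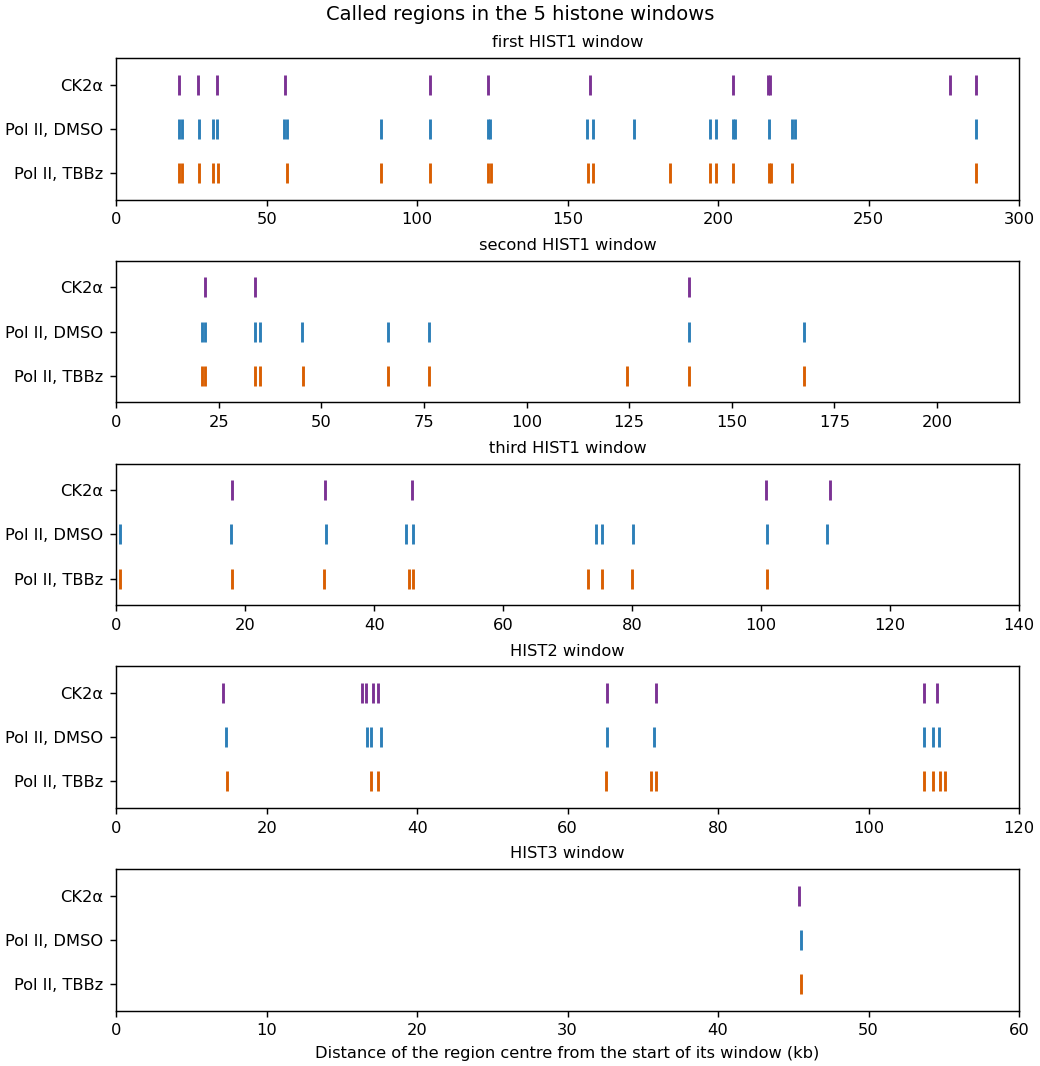
Position of every member by library; the horizontal axis is the distance of the region centre from the start of its window in kb, with 1 panel per window. Marks of all 3 libraries meet at 23 of the 59 loci, the HIST2 window has an empty stretch in its right part that measures 35616 to 35824 bp between the centres at its sides, and the HIST3 window holds a single position found in all 3 libraries.

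Neighbouring regions were close together. The median distance between neighbouring centres within a window was 9658.5 bp with DMSO and 10429 bp with TBBz, against 35220 and 30661.5 bp over the whole lists. For CK2α it was 13576 bp, against 60744 bp. Neighbours within 2 kb made up 16 of 46 distances with DMSO (34.8%, against 9.95% of the whole list), 14 of 45 with TBBz (31.1%, against 12.5%) and 5 of 25 for CK2α (20%, against 10.6%). Per the file headers the minimum distance between regions was set at 500 bp, and a region also had to stand 4-fold above the surrounding 10 kb, so a crowded stretch can lose regions. Of all candidates, 76.2%, 53.7% and 35.3% were removed by that rule for CK2α, DMSO and TBBz; how many of them lay in the windows cannot be read from the lists.

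Most sites were called both with DMSO and with TBBz, as over the whole lists, whose shares lie within the intervals of the members. Of the 51 DMSO members, 39 overlapped a TBBz region by at least 1 bp, which is 76.5% (62.5 to 87.2%) against 73.8% of the whole DMSO list. Of the 50 TBBz members, 39 overlapped a DMSO region, 78.0% (64.0 to 88.5%) against 65.0%. The ratio of region numbers, TBBz over DMSO, was 0.980 (0.650 to 1.48), and over the whole lists it was 1.14; the interval in the windows covers both 1 and the ratio of the lists. By window, the overlapping DMSO members were 17 of 22, 9 of 9 and 6 of 10 in the 3 HIST1 windows, 6 of 9 in HIST2 and 1 of 1 in HIST3. The median distance from a DMSO member to the nearest TBBz centre was 43 bp (95% interval of the median 20 to 83 bp), against 33 bp over the list.

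Most of the remaining regions had a partner close by. A TBBz centre stood within 1 kb of 48 of 51 DMSO members (94.1%, against 85.0% of the list), and a DMSO centre within 1 kb of 47 of 50 TBBz members (94.0%, against 76.6%). Within 2 kb it was 49 of 51 DMSO members (96.1%, against 86.1% of the list) and 48 of 50 TBBz members (96.0%, against 78.9%), which left 2 of each. One of these DMSO members was chr6:26171994-26172194 in the first HIST1 window, 11971 bp from the nearest TBBz centre, and the other was chr6:27870125-27870325 in the third, 9325 bp away. Both were late in the DMSO list, at 79.9% and 80.0% of its length. The TBBz members with no DMSO centre within 2 kb were chr6:26183965-26184165, at 94.3% of the TBBz list, and chr6:27204349-27204549, at 87.1%. In the HIST2 window every Pol II member had a partner within 2 kb. The members stood early in their lists (median 28.6% with DMSO and 38.3% with TBBz) and in denser stretches. The whole lists were matched for neither.

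CK2α regions of the histone windows lay on or beside Pol II. Of 30 CK2α members, 19 overlapped a DMSO Pol II region, 63.3% (43.9 to 80.1%) against 36.8% of the CK2α list, and 19 overlapped a TBBz Pol II region, against 36.0%. The members stood early in the CK2α list (median 15.2%), and the whole list was not matched for place. With the first 50% of each list the shares of members were 51.7% with DMSO and 44.8% with TBBz. With equal numbers of regions they were 53.3% and 56.7%. Cutting the lists also removes partners, and the share of the whole CK2α list was not taken under these settings. Whether the members exceed the list there was therefore not tested. Both Pol II lists were overlapped by 18 of the 30 (60.0%, 40.6 to 77.3%), against 28.9% of the list, and neither by 10 (33.3%), against 56.1%. A DMSO Pol II centre stood within 1 kb of 29 of the 30 (96.7%, against 78.3% of the list) and a TBBz centre of 27 (90.0%, against 77.0%). Seen from Pol II, 19 of 51 DMSO members (37.3%, 24.1 to 51.9%) and 19 of 50 TBBz members (38.0%, 24.7 to 52.8%) overlapped CK2α, against 22.6% and 19.4% of the lists. A CK2α centre stood within 1 kb of 34 of 51 DMSO members (66.7%, against 47.5%) and 33 of 50 TBBz members (66.0%, against 42.2%). By window, CK2α members that overlapped DMSO Pol II were 6 of 12, 3 of 3 and 4 of 5 in HIST1, 5 of 9 in HIST2 and 1 of 1 in HIST3, and the counts with TBBz Pol II were equal.

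The median distance from a CK2α member to the nearest Pol II centre was 159 bp with DMSO (90 to 275 bp) and 120 bp with TBBz (89 to 260 bp); over the CK2α list it was 302 and 307 bp. With the first 50% of each list the medians were 199 bp with DMSO and 260 bp with TBBz, so the order of these medians turned. The single CK2α member with no Pol II centre within 1 kb in either library was chr6:26277132-26277332, which lay 8450 bp from the nearest DMSO and 8480 bp from the nearest TBBz region. At chr6:27870659-27870859 a DMSO Pol II centre stood 534 bp away and the nearest TBBz centre 9859 bp away.

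**Figure D3:**
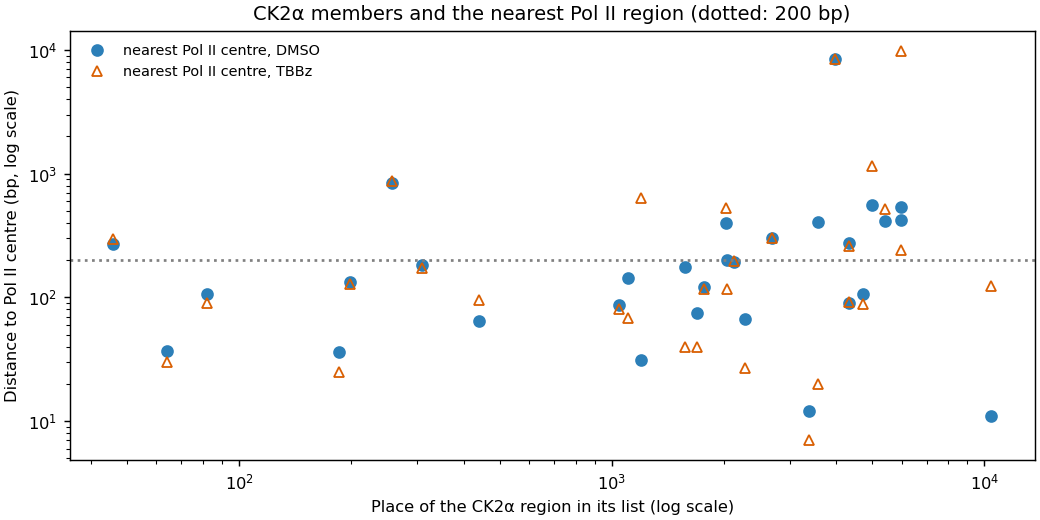
Distance from each of the 30 CK2α members to the nearest Pol II centre with DMSO (filled circles) and with TBBz (open triangles), in bp on a log axis, against the place of the CK2α region in its list, also on a log axis; the dotted line is at 200 bp, about the width of a region. All but 1 of the members had a DMSO centre within 1 kb, and the exception lies at 8450 bp; 3 members had no TBBz centre within 1 kb, at 1163, 8480 and 9859 bp.

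Chained by centres no more than 500 bp apart, the 131 regions formed 59 loci. All 3 lists held 23 of them (39.0%, 26.5 to 52.6%, against 25.8% of the 31826 loci of the series), and 21 were held by both Pol II lists without CK2α (35.6%, against 30.0%). CK2α and DMSO Pol II alone held 2 loci (3.39%, 0.413 to 11.7%, against 2.04% in the series), and CK2α and TBBz Pol II alone held 0 (upper limit 6.06%, against 1.62%); both intervals cover the share in the series. Loci of a single list numbered 4 for CK2α (6.78%, against 11.3% in the series), 5 for DMSO (8.47%, against 9.91%) and 4 for TBBz (6.78%, 1.88 to 16.5%, against 19.3%). In the HIST2 window 7 of 11 loci were held by all lists, against 8 of 25, 3 of 10 and 4 of 12 in the HIST1 windows. No region of any list lay between the HIST2 loci that ended at chr1:149821841 and began at chr1:149857250. In RefSeq the HIST2 group includes H2AC18 and H2AC19, H3C14 and H3C15, and H4C14 and H4C15, near-identical copies of H2A, H3 and H4 genes. Where they lie in hg19 was not examined, and how reads that match several copies were handled is not given in the sources used here.

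The order of the lists carries further information. The score column is constant, but each list ran through the chromosomes from 1 to Y again and again, in 18 runs over its last 10000 regions for CK2α, 25 for DMSO and 36 for TBBz. A list sorted by a whole-number value with ties left in chromosome order has this form, and place in the list is read here as the order of that value, taken to be tags per region with the highest first. The value itself was not at hand. CK2α members stood early: their median place was at 15.2% of the list, and 8 of 30 were among the first 1000 regions, 26.7% (12.3 to 45.9%) against 7.47% of the list. DMSO Pol II members had their median at 28.6%, with 9 of 51 among the first 1000, 17.6% (8.40 to 30.9%) against 4.58%. TBBz Pol II members had their median at 38.3%, with 1 of 50 among the first 1000, 2% (0.0506 to 10.6%) against 4.04%. Among the first 500 regions the members numbered 8, 4 and 0 for CK2α, DMSO and TBBz, against 3.74%, 2.29% and 2.02% of the lists. Among the first 2000 they numbered 14, 13 and 2, against 14.9%, 9.17% and 8.07%. The lists differ in length, so places in different lists are given side by side and not compared.

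**Figure D4:**
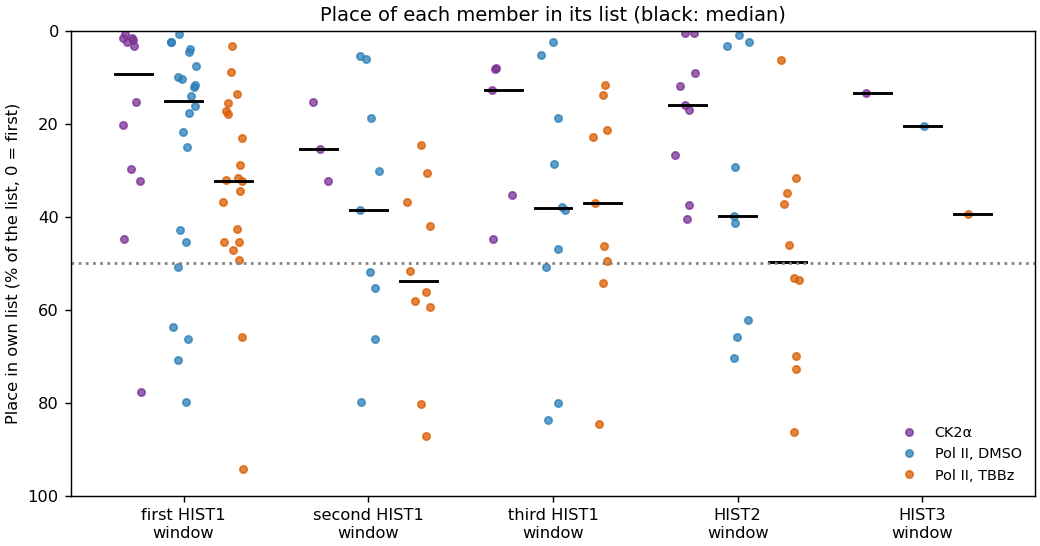
Place of every member in its own list, as a percentage of the list with the first region at the top, by window and library; black bars are medians and the dotted line is the middle of a list. In the first HIST1 window the median CK2α member stood at 9.23%, the median DMSO member at 15.0% and the median TBBz member at 32.2%.

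To compare the Pol II lists at equal length, the 16112 pairs of overlapping DMSO and TBBz regions were ordered among themselves in each library. Of the 39 pairs in the histone windows, 35 (89.7%) stood later with TBBz, against 48.7% of all pairs. They are called histone pairs by window alone, and none was assigned to a histone gene. The median histone pair moved back by 13.0 percentage points of the order, and the median of all pairs was -0.323. The 95% interval of the histone median over sites was 8.24 to 23.6. Sites of 1 library per group are not replicates of the treatment, so this interval does not measure the certainty of a treatment effect. The median order of the histone pairs was 22.9% with DMSO and 48.4% with TBBz. Among the first 10% of pairs there were 13 histone pairs with DMSO and 2 with TBBz. The pairs that stayed were those of chr6:26156491-26156691, at 0.857% and 4.55%, and chr1:149858437-149858637, at 1.04% and 8.58%.

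Pairs at the head of an order have more room to move back than ahead, so the histone pairs were also read against pairs of the same decile of the DMSO order. In the first decile, all 13 histone pairs stood later with TBBz, with a median of 17.6 points and a range of 3.69 to 43.2; 68.8% of all pairs of that decile did so, with a median of 2.82 points. In the second decile, 5 of 5 stood later, with a median of 25.6 points, against 55.7% of all pairs and a median of 2.07. Late in the order the direction was mixed. In the seventh decile 3 of 3 stood later, with a median of 8.24 points against -1.48, and in the tenth 1 of 1, with 2.55 against -3.51. In the eighth decile 1 of 2 stood later, with a median of -0.785 points against 0.403, and in the ninth 1 of 3, with -1.20 against 0.118. The remaining pair that did not stand later was in the third decile. In all, 13 of 39 histone pairs (33.3%) moved back by more than the 90th percentile of their decile, which 9.99% of all pairs exceed.

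Most pairs moved back in each window. Pairs later with TBBz were 15 of 17, 8 of 9 and 5 of 6 in the 3 HIST1 windows, 6 of 6 in HIST2 and 1 of 1 in HIST3, with medians of 15.5, 11.8, 12.7, 20.6 and 26.4 points. The largest movements were those of chr1:149859319-149859519 with 43.2 points, chr6:27101589-27101789 with 42.5 and chr1:149857250-149857450 with 37.9. The 4 pairs that stood earlier with TBBz were chr6:27247463-27247663 (-16.6 points), chr6:26224462-26224662 (-16.2), chr6:27805914-27806114 (-3.93) and chr6:26087971-26088171 (-1.20). Pairs on a CK2α region were later in 15 of 16 cases, with a median of 14.3 points, and pairs without CK2α in 20 of 23, with a median of 12.3. Over the whole series the shares were 55.0% with CK2α and 46.6% without, with medians of 1.51 and -0.841 points. Pairs with CK2α stood earlier in the DMSO order, with a median of 21.3% against 34.7% in the windows. In the series it was 38.7% against 54.2%. The movement of all pairs differed by decile of that order, and the 2 kinds of pair were not matched for it. Whether CK2α goes with a larger movement was therefore not tested.

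**Figure D5:**
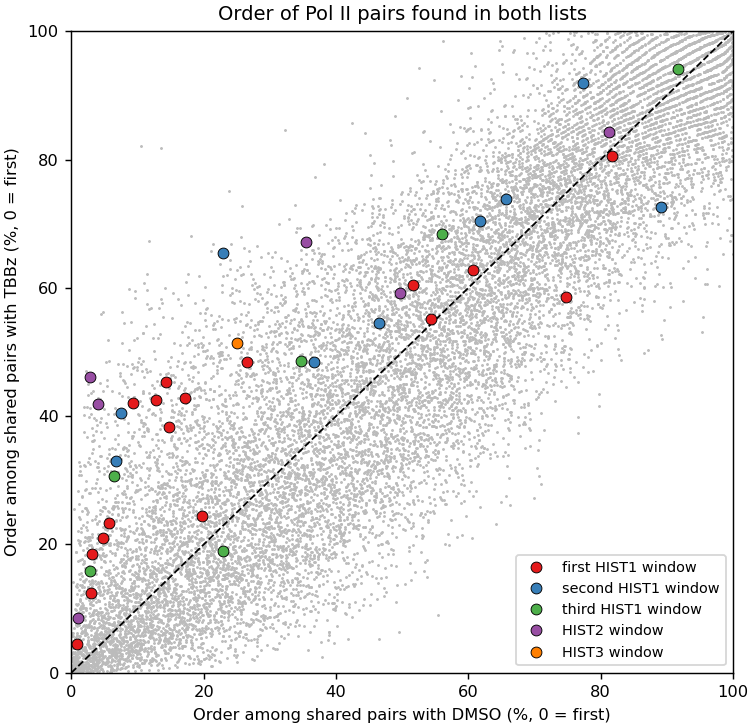
Order of the 16112 Pol II pairs found in both libraries, as a percentage with the first pair at 0, with DMSO on the horizontal and TBBz on the vertical axis; grey points are all pairs, coloured points the 39 pairs of the histone windows, and the dashed line marks equal order. Of the coloured points 35 lie above the line, among them all 13 in the first 10% with DMSO.

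The leading sites are given with their places in each list and, for pairs, their movement in the common order. In the first HIST1 window, Pol II was led by chr6:26156491-26156691 at place 143 with DMSO, and by the same site, chr6:26156542-26156742, at place 795 with TBBz. No CK2α region overlapped it; the nearest, chr6:26157448-26157648, was 957 bp away and stood at place 257. CK2α was led by chr6:26204879-26205079 at place 82, where Pol II stood at place 512 with DMSO and 2197 with TBBz. At chr6:26104116-26104449 CK2α had place 198, DMSO Pol II 526 and TBBz Pol II 3353. The locus chr6:26027185-26027568 had places 309, 824 and 3811, chr6:26123332-26123593 had 185, 1627 and 7861, and chr6:26020624-26021128 had 2692, 2238 and 7959, in the same order of lists. In the common order of pairs all 6 sites moved back with TBBz, by 3.69, 9.39, 15.5, 16.3, 32.7 and 29.7 points in the order named.

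In the second HIST1 window Pol II was led by chr6:27114831-27115031, at place 1161 with DMSO and 6081 with TBBz, and the nearest CK2α region was 1001 bp away. The CK2α regions there were chr6:27113830-27114030 at place 2032, chr6:27219520-27219720 at place 3389 and chr6:27101499-27101699 at place 4320, and each overlapped both Pol II lists. At chr6:27219508-27219727 the DMSO region stood at place 6583 and the TBBz region at place 9127. At chr6:27101499-27101791 they stood at 4060 and 12786, and at chr6:27113631-27114030 at 8405 and 10400. In the order of pairs these 3 sites moved back by 11.8, 42.5 and 8.10 points, and the leading site by 26.3.

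In the third HIST1 window Pol II was led by chr6:27777770-27777970 at place 484 with DMSO, where the TBBz region stood at place 2852 and CK2α at 1696. The CK2α list was led by chr6:27805827-27806027 at place 1048; the DMSO region there had place 4061 and the TBBz region place 3428. At chr6:27860711-27861018 the places were 4713 for CK2α, 1125 with DMSO and 5644 with TBBz. At chr6:27792183-27792594 they were 1102, 8256 and 12249; the 2 Pol II regions there did not overlap, with centres 211 bp apart. In the order of pairs the first of these sites moved back by 13.0 points and chr6:27860711-27861018 by 24.3, while chr6:27805827-27806114 moved ahead (-3.93). The fifth CK2α region, at chr6:27870659-27870859, had place 5980 and overlapped neither Pol II list.

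The end of the HIST2 window held the earliest CK2α members of all windows, chr1:149859047-149859247 at place 46 and chr1:149857287-149857487 at place 64. Pol II was led by chr1:149858437-149858637, which lay between them, at place 176 with DMSO and 1510 with TBBz. The DMSO regions beside it, chr1:149859319-149859519 and chr1:149857250-149857450, stood at places 482 and 692, and their TBBz partners, with centres 22 and 7 bp away, at 8646 and 7845. In the order of pairs they moved back by 43.2 and 37.9 points, and the leading site between them by 7.55. Among the other HIST2 sites held by all lists, chr1:149783780-149784178 had Pol II at place 6379 with DMSO and 13161 with TBBz, a movement of 31.6 points. The locus chr1:149784728-149785337 had 8681 and 13278, but its 2 Pol II regions did not overlap, with centres 389 bp apart, and formed no pair. The locus chr1:149764068-149764791 had 9011 and 11417, a movement of 9.53 points. In the HIST3 window the only site, chr1:228645297-228645619, had CK2α at place 1771, DMSO Pol II at 4447 and TBBz Pol II at 9747, a movement of 26.4 points.

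These are relative orders. A later order with TBBz says that more of the other pairs stood ahead, not that fewer tags lay on a site: the TBBz library held 22345614 tags and 114 per region, the DMSO library 15466579 and 48.1. The headers also cap the count at 1 tag per base pair, and the part of this cap and of the depth in these orders was not tested.

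Whether a DMSO member was called again with TBBz was set beside CK2α. Of the 19 DMSO members that overlapped CK2α, 16 overlapped a TBBz region, 84.2% (60.4 to 96.6%), against 81.2% of such regions in the list. Of the 32 without CK2α it was 23, 71.9% (53.3 to 86.3%), against 71.7%. The 2 intervals overlap, and the members with CK2α stood earlier in the list (median 18.6% against 39.2%). For TBBz members called with DMSO the values were 16 of 19 with CK2α (84.2%, against 84.0% of the list) and 23 of 31 without (74.2%, 55.4 to 88.1%, against 60.4%).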

How the data were processed

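ChIP-seq regions of 3 libraries from LNCaP cells were used, 1 per group. The submitters' processing notes name Bowtie, HOMER and the build hg19, with no versions. Per the file headers, the authors called regions library by library (HOMER, factor style), without a control library in the command, at a false discovery rate of 0.001, with a peak size of 200 bp and a fragment length of 150 bp. The tag threshold was 12 for CK2α, 11 for DMSO and 13 for TBBz; the CK2α library held 19021404 tags. The deposited score is 1 for every region and was not used. The other deposited columns used are positions in BED form, and starts were raised by 1 for printing. Total tags and tags per region are those of the headers.

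Members were regions with centre, (start + end) divided by 2 and rounded down, in the windows. Overlap meant at least 1 bp. Windows of equal width were counted along each chromosome, over those with a region of any list. Intervals are exact (Clopper-Pearson, Poisson, or order statistics of the median) at 95%. The overlap and distance functions were tested on simulated data. The members and lists were chosen with earlier results of these data known. Named regions are the first of each list per window, members without a partner (2 kb for Pol II, 1 kb for CK2α), the first 5 loci per window held by all lists, all members where a window holds 5 or fewer of a list, and, chosen after their values were seen, the pairs with the largest movement or against the direction. The order of pairs, the first 1000 regions and the stretches between windows were added after seeing the data. Within chromosomes 1 and 6 the place in the file followed the candidate number in the region's name (Spearman's rho 0.991 to 0.999, across regions). Region sequences were not read, since no hg19 genome was used here. Counts and intervals were computed in Python 3.11.15 with SciPy 1.17.1, pandas 2.3.3 and NumPy 2.4.6, and plots were drawn with Matplotlib 3.10.9.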

Additional observations from a re-analysis of the deposited data

How the results depend on the processing

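No paired analysis was possible because there is only 1 library in a group. Of the values recomputed over all windows, 49 stayed within their interval or within 1.5 times the count and 15 did not. Most of the latter changed with the definition of a partner, which a wider or narrower rule moves by construction. With centres within 500 bp, 90.0% of TBBz members had a DMSO partner (72.3% of the list) and 86.7% of CK2α members had one (66.8%). Where the overlap had to cover 50% of the shorter region, 33.3% of CK2α members overlapped DMSO (21.4% of the list) and 43.3% TBBz Pol II (20%), and 19.6% of DMSO members overlapped CK2α (13.1%). With regions extended by 1 kb, 96.1% of DMSO and 96.0% of TBBz members were shared (86.1% and 79.1%), 96.7% and 93.3% of CK2α members met DMSO and TBBz Pol II (80.8% and 79.4%), and 72.5% and 72.0% of DMSO and TBBz members met CK2α (49.9% and 44.9%). Loci held by all 3 lists were 25.7% when chained within 200 bp and 54.5% within 1 kb. The share over the series was taken only for chains within 500 bp, so neither value has a series share beside it. In the first 500 regions, the share of CK2α members was 7.14 times that of the list and the share of TBBz members 0, against 3.57 and 0.496 in the first 1000; for DMSO it was 3.42 against 3.85. The median movement of histone pairs was 10.3 to 20.6 points over 5 alternatives chosen after seeing the data, among them HIST1 alone (28 of 32 pairs later), chromosomes 1 and 6 alone (33 of 39) and tied places (35 of 39). The share of all pairs standing later was taken in the main order only (48.7%), so counts from another order have no such share beside them. Divided by total tags, the ratio of Pol II region numbers in the windows was 0.679, against 0.980 undivided. The same divisor lowers the ratio of the whole lists, which was 1.14 undivided, so this fall is not particular to the windows. By window, counts that changed by over 1.5 times were those of HIST3 with windows extended by 20 kb (4 DMSO, 4 TBBz and 2 CK2α regions), the second HIST1 window in the first 50% of each list (5 DMSO and 4 TBBz) and at equal list lengths (5 TBBz), and HIST2 in the first 50% (5 TBBz). In the first 50% the first HIST1 window held 17 DMSO and 18 TBBz regions, and HIST2 held 6 DMSO regions, so per kb Pol II was denser in the first HIST1 window there. The median distance from CK2α to TBBz Pol II was 260 bp in the first 50%, against 120 bp. The files hold no reads to thin, so the effect of unequal depth on these counts was not tested.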
